A study of Rattus norvegicus with 6 samples.

Results

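The genes described here build and run the DNA replication fork. They comprise 52 genes taken by name for their known roles in origin licensing, origin firing, DNA synthesis at the fork and the rebuilding of chromatin behind it. The choice was made with earlier results of these data known. All 52 genes had counts, among 12121 genes in all, and each matched exactly 1 row. The data came from C6 cells, an established glioma line derived from a rat brain tumour. C6-AQP1 cells (genotype labelled as overexpressing Aqp1) were sequenced in 3 libraries, and C6 control cells (genotype labelled control) in 3 libraries. In the study, the coding sequence of the water channel AQP1 was placed in the expression vector pCDH, with a CMV promoter, a copGFP reporter and a puromycin resistance gene. Both groups were grown without any other stated treatment. The sources do not say whether the sequenced controls carried the empty vector, or whether the C6-AQP1 cells were a clone or a pool. They also do not say that the 3 libraries of a group were separate cultures, and the p-values reflect library-to-library spread only, possibly of technical origin.

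Replication origins are prepared and fired at separate times. During licensing, the origin recognition complex together with CDC6 and CDT1 loads the ring-shaped MCM helicase onto DNA. On entry into S phase the kinase CDC7 with DBF4, and cyclin-dependent kinases, convert the loaded ring into an active helicase by adding CDC45 and the GINS complex. The DNA polymerases alpha, delta and epsilon then copy both strands, held in place by the clamp PCNA. Most of these genes are transcribed mainly in late G1 and S phase, and many are textbook targets of E2F transcription factors. They are widely used as readouts of proliferation in tumour cells.

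Levels are given as normalized CPM, that is, expected counts scaled to library size with TMM factors. Library totals ranged from 19054244 to 52725870 counts, with replicate 1 the shallowest library of both groups. Aqp1 itself had 1052, 1064 and 1057 normalized CPM in the C6-AQP1 libraries and 347, 352 and 349 in the controls, higher in every library with that label. Of 10 glial markers 9 were measured, with a summed level of 8520 to 8773 normalized CPM in C6-AQP1 against 6144 to 6274 in controls. Vim and Nes made up most of this sum, with means of 3249 and 1840 in C6-AQP1 and 2001 and 1536 in controls. Gfap differed most, with means of 167 in C6-AQP1 and 14.0 in controls (log2 fold change 3.57), while Cspg4 overlapped between the groups. Of markers of other cell types, none of 6 immune genes and 1 of 5 endothelial genes (Tek) had counts to analyse. The endothelial gene reached 7.94 to 8.55 CPM in C6-AQP1 and 2.19 to 3.14 in controls, the 3 of 5 neuronal genes summed to 257 to 263 against 84.9 to 88.3, and the 2 of 5 fibroblast genes to 45.1 to 50.6 against 14.0 to 15.4. All of these summed levels were higher in C6-AQP1, and their part in the results was not tested. Map2 made up most of the neuronal sum, with a mean of 254 normalized CPM in C6-AQP1 and 81.8 in controls. Tubb3 overlapped between the groups, and Snap25 had means of 1.91 and 0.241. Of the fibroblast genes, Col1a1 had means of 37.2 and 6.11 and Pdgfrb of 10.9 and 8.58.

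Replication genes were lower in C6-AQP1 cells almost throughout. Of the 52 genes, 49 fell, 1 rose and 2 did not pass the test, at an adjusted p under 0.05 in edgeR's quasi-likelihood test. Across all 12121 genes, 40.7% fell and 40.8% rose by the same rule, so calls were common in these libraries. The direction was near uniform among the 52 genes. Because these were chosen with earlier results of the data known, that uniformity is a description and no independent result. DEGs, which also changed more than 2-fold, numbered 22 among the 52 genes. All 22 were lower in C6-AQP1, and lower DEGs made up 4.35% of all genes. In 51 of the 52 genes every C6-AQP1 library lay below every control library, compared with 41.3% of all genes. The median log2 fold change of the 52 genes was -0.95, a level of 51.7% of control, against 0.00 over all genes, and 5.63% of all genes had a lower value than this median. The middle part of the distribution, from the lower to the upper quartile, ran from -1.11 to -0.73 on the log2 scale.

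The summed counts of the 52 genes took 0.264%, 0.258% and 0.258% of the C6-AQP1 libraries and 0.470%, 0.466% and 0.465% of the control libraries. The 3 libraries of a group thus stood close together and the groups far apart. Within groups the coefficient of variation of a gene had a median of 3.48% in C6-AQP1 and 1.69% in controls. Ns5atp9 was the exception, with 34.3% in C6-AQP1 and 15.4% in controls, and with 58 counts in its shallowest library. Every other gene of the set had at least 144 counts in every library. In bulk RNA, fewer cells in S phase and less of these RNAs in each cell cannot be told apart.

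**Figure D1:**
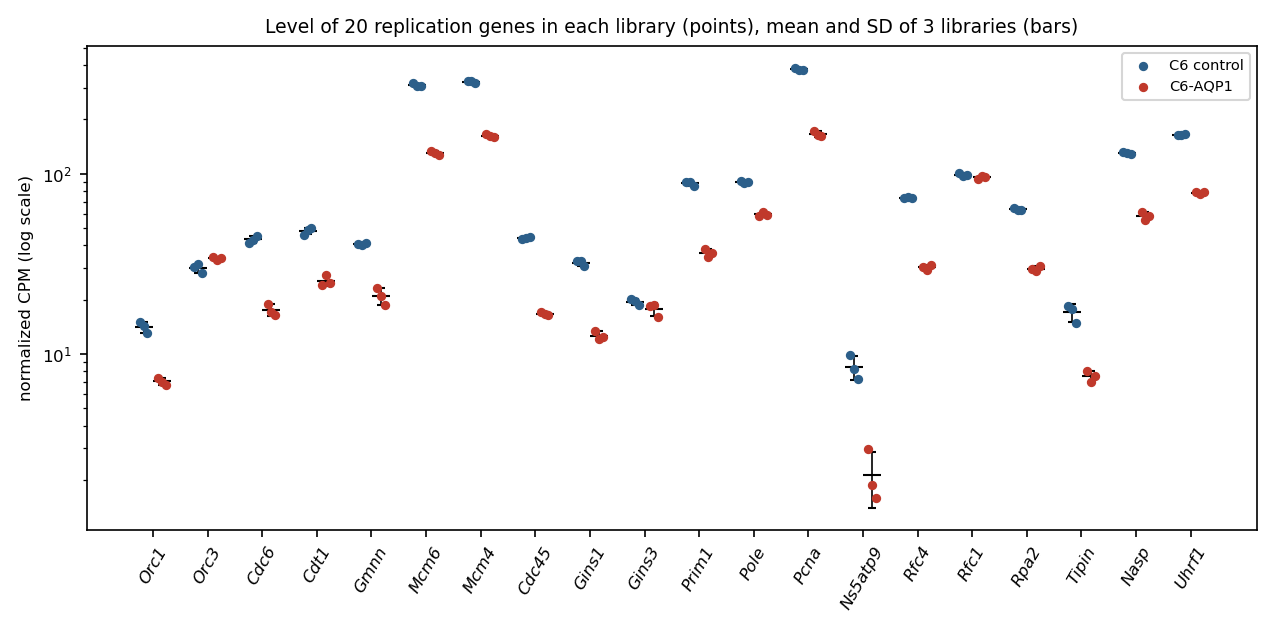
Normalized CPM (log scale) of 20 replication genes. Points are libraries and bars show mean ± SD (n = 3 per group). C6-AQP1 points sit under the control points for every gene drawn except Orc3, where they sit higher, while Gins3 and Rfc1 lie only slightly lower and did not pass the test.

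The promoters of the 52 genes were read for elements known from cell cycle genes. The genes were chosen by role and many are textbook E2F targets, so a high share of E2F-like elements could follow from that choice alone. RefSeq windows on the GRCr8 build, from 250 bases before to 50 bases after the annotated start, were found for 47 of the 52 genes (Ns5atp9 under its current name Pclaf, and Uhrf1 with 3 windows). These windows come from another build than the rn6 alignment and serve only as sequence. An E2F-like element was counted where either strand held TTGGCGC, the form TTCGCGC, the form TTCCCGC or the form TTGCCGC. Such letters occurred in 34 of 47 genes (72.3%), compared with 10.6% of all 27457 genes with a window and 18.9% of the 8637 genes that also had counts here. Matches on opposite strands can overlap, and a gene counted once however many it held. The NF-Y box, CCAAT on either strand, occurred in 57.4% of the 47 genes, 39.6% of all genes and 39.9% of the genes with counts. The CHR element, counted as TTTGAA on either strand and known from genes expressed in mitosis, occurred in 12.8% of the 47 genes, 19.4% of all genes and 12.4% of the genes with counts, so its share among the replication genes was that of the measured genes. A match describes the letters only and shows no binding.

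The stretches printed here contrast genes of unequal change, and each holds the last 150 bases before the start, 5′ to 3′, with E2F-like elements that lie wholly inside in capitals. Mcm6 (chr13:42404353-42404502, minus strand) and Gins1 (chr3:160184770-160184919, plus strand) were lower DEGs and carried overlapping pairs. Gins3 (chr19:9434680-9434829, minus strand) and Orc3 (chr5:53977795-53977944, minus strand) carried a match although the first did not pass the test and the second rose. Ns5atp9 (chr8:75315567-75315716, plus strand) had the lowest log2 fold change of the set, and Pcna (chr3:139955821-139955970, minus strand) was a lower DEG whose window held none of these letters.
Mcm6: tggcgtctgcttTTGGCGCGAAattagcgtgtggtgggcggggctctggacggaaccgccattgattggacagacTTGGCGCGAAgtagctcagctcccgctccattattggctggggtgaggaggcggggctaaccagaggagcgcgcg
Gins1: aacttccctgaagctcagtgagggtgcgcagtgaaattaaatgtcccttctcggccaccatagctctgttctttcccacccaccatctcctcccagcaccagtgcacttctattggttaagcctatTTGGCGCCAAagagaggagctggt
Gins3: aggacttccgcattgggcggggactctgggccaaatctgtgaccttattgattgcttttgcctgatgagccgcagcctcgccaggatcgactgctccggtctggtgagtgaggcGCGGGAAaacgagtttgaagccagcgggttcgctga
Orc3: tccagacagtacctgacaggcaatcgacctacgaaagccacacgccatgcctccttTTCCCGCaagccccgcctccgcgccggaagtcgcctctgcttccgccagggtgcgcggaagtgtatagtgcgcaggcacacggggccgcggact
Ns5atp9: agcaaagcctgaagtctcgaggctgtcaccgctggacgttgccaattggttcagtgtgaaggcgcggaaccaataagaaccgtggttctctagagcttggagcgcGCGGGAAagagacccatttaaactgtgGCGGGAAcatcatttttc
Pcna: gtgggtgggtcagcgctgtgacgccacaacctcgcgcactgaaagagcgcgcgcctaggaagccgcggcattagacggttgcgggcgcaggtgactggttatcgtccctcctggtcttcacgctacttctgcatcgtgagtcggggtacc

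The element was about as common in the lower DEGs as in the remaining genes of the set. Among the lower DEGs, 14 of 19 with a window (73.7%) held it, and among the remaining genes 20 of 28 (71.4%). Cdc45, Nasp, Pcna, Pola2 and Pold2, all lower DEGs, had no match in their windows, while Rfc1 and Wdhd1 had 2 each.

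**Figure D2:**
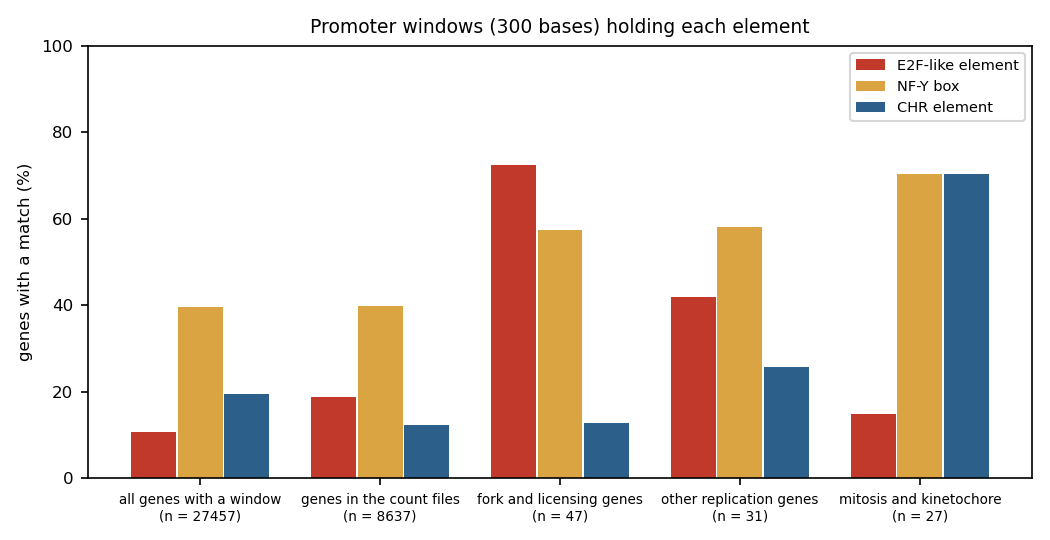
Share of genes whose 300-base promoter window holds each element (vertical axis, percent), with the number of genes that have a window. The E2F-like bar stands at 72.3% for the fork and licensing genes and 14.8% for the mitosis genes, whereas the CHR bar stands at 12.8% and 70.4%.

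Origin recognition genes moved in both directions. Orc1, the subunit whose level cycles, had 7.38, 7.0 and 6.76 normalized CPM in C6-AQP1 and 15.1, 14.2 and 13.1 in controls. Its highest C6-AQP1 library thus lay well under its lowest control, a log2 fold change of -1.0045 (SE 0.08, adjusted p = 9.5e-11 from edgeR) that put it just inside the DEG threshold. Orc6, the smallest subunit, fell with a log2 fold change of -0.91. The core subunits changed little. Orc5 had 23.9, 24.7 and 24.02 normalized CPM in C6-AQP1 and 26.5, 26.99 and 26.5 in controls, close but without overlap. Orc2 and Orc5 fell by 0.16 and 0.14 on the log2 scale (adjusted p = 3.5e-04 and 0.00991), and the call of Orc5 was lost without C6 control replicate 2 (adjusted p = 0.0556) or with libraries scaled by totals alone (0.0972; 0.00784 to 0.0972 over all alternatives). Orc3, a core subunit that binds ORC2, was the only gene of the set that rose, with 34.5, 33.4 and 34.0 normalized CPM in C6-AQP1 and 30.2, 31.6 and 28.0 in controls. The groups did not overlap, and the rise was small, with a log2 fold change of 0.18 (SE 0.05, adjusted p = 0.00157). Orc4, a further core subunit outside the set, had a log2 fold change of 0.17 (adjusted p = 0.0015).

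Among licensing factors, Cdc6, the ATPase that helps ORC load the helicase, had 19, 17.05 and 16.5 normalized CPM in C6-AQP1 and 41.5, 43.1 and 45.1 in controls. All 3 C6-AQP1 libraries were under 20 and all controls above 40, a log2 fold change of -1.33 (SE 0.05, adjusted p = 6.0e-16). Cdt1, which escorts the MCM ring to the origin, and Gmnn, geminin, which binds CDT1 and blocks relicensing, fell side by side, with log2 fold changes of -0.92 and -0.97. The ratio of Cdt1 to Gmnn counts within a library, which no scaling of libraries affects, was 1.04, 1.31 and 1.32 in C6-AQP1 and 1.12, 1.22 and 1.21 in controls. These ranges overlapped (difference in log2 ratio 0.04, exact permutation test, two-sided p = 0.70). With 3 against 3 libraries this test cannot give a value under 0.10, so it could not decide on a shift between activator and inhibitor. Dtl, the CUL4 ubiquitin ligase adaptor that targets CDT1 for destruction, had the smallest change of this role, with 40.1, 36.4 and 38.2 normalized CPM in C6-AQP1 and 69.0, 69.2 and 69.5 in controls. Its groups were still far apart, with a log2 fold change of -0.87 (SE 0.04, adjusted p = 3.2e-15).

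The MCM helicase fell as a whole, since all 6 subunits of the ring fell and 5 of them were DEGs. Mcm6 had 134, 130 and 127 normalized CPM in C6-AQP1 and 317, 307 and 307 in controls, the largest change of the ring, with a log2 fold change of -1.25 (SE 0.02, adjusted p = 3.2e-21). Mcm5 had 88.2, 86.8 and 84.6 against 199, 201 and 204, a log2 fold change of -1.22. MCM5 forms, with MCM2, the gate at which the ring opens around DNA. Neither gene had a C6-AQP1 library anywhere near its control range. Mcm7 had 124, 130 and 130 against 276, 274 and 270 normalized CPM, and Mcm2, the subunit that also binds histones, had 103, 107 and 105 against 220, 224 and 222. Mcm3 followed with 101, 98.0 and 99.6 against 202, 201 and 205 normalized CPM. The log2 fold changes of these 3 genes lay between -1.09 and -1.03, and no C6-AQP1 library came near the control range. Mcm4 had 165, 161 and 161 normalized CPM in C6-AQP1 and 325.1, 328.5 and 319.5 in controls. At a log2 fold change of -0.998 (SE 0.02, adjusted p = 3.1e-20) it lay just outside the DEG threshold. As shares of the summed counts of the ring, which depend on transcript length and are compared only between groups, Mcm6 went from 20.2% ± 0.328 in controls to 18.3% ± 0.379 in C6-AQP1 and Mcm4 from 21.1% ± 0.237 to 22.8% ± 0.273 (SD, n = 3). The share of each of the 6 subunits differed by less than 2 percentage points between the groups.

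Genes of origin firing ranged from among the largest changes of the set to almost none. Cdc45, the helicase cofactor added at firing, had 17.2, 16.6 and 16.4 normalized CPM in C6-AQP1 and 43.35, 43.8 and 44.5 in controls, with a log2 fold change of -1.398 (SE 0.04, adjusted p = 1.8e-17). The 4 GINS subunits, which join the helicase together with CDC45, did not move alike. Gins1 had 13.4, 12.1 and 12.4 normalized CPM against 32.8, 32.7 and 30.6 in controls, and Gins4 had 12.2, 11.1 and 12.01 against 32.2, 31.3 and 29.2, both clearly apart between groups. Their log2 fold changes were -1.35 and -1.39 (SE 0.06 for both). Gins2 fell by only 0.29 on the log2 scale (adjusted p = 2.5e-05). For Gins3 the libraries had 18.5, 18.7 and 16.0 normalized CPM in C6-AQP1 and 20.15, 19.6 and 18.8 in controls. The highest C6-AQP1 library almost touched the lowest control, and the log2 fold change of -0.14 (SE 0.06, adjusted p = 0.0564) did not pass. It passed in 5 of 13 alternatives, namely without C6-AQP1 replicate 1 (adjusted p = 0.0249) or replicate 2 (0.027), without the shallower library of each group (0.0468), under limma-voom (0.0381) and with the replicate number as a block (0.0336), and the values over all alternatives ran from 0.0249 to 0.395. Mcm10, a fork component needed for activation, and the kinase pair Dbf4 and Cdc7 fell by 0.80, 0.73 and 0.55 on the log2 scale.

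The composition of GINS counts differed between groups accordingly. Gins1 and Gins4 took 28.9% ± 0.302 and 27.8% ± 0.195 of the GINS counts in controls and 19.4% ± 0.844 and 18.0% ± 0.873 in C6-AQP1 (SD, n = 3). Gins2 went from 25.8% ± 0.190 to 35.5% ± 2.10, and Gins3 from 17.6% ± 0.161 to 27.2% ± 2.09 (SD, n = 3). These shares are free of library scaling, but they sum to the whole and so depend on each other. For each of the 4 subunits the 3 libraries of a group did not overlap those of the other group. The same held in the MCM ring for Mcm3, Mcm4, Mcm5 and Mcm6, at smaller differences. Count ratios of 2 genes did not overlap in 81.0% of all pairs of genes, so the shares are given as values only.

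**Figure D3:**
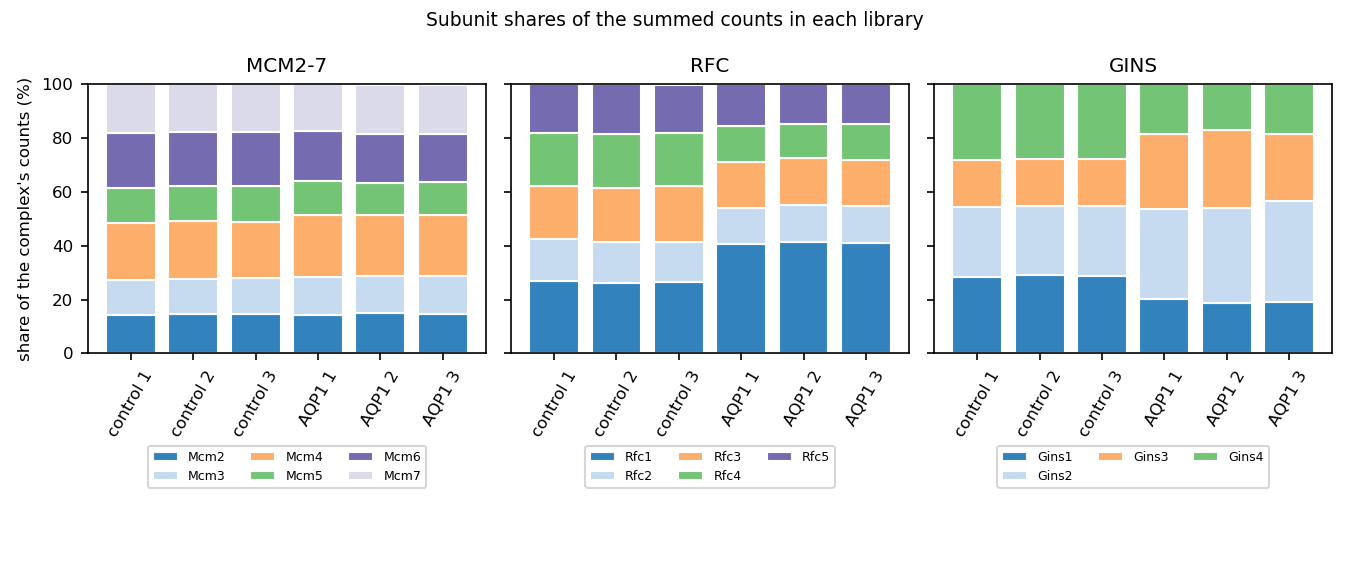
Share of each subunit (vertical axis, percent) in the summed expected counts of the MCM ring, the RFC clamp loader and GINS, in each of the 3 control and 3 C6-AQP1 libraries. The bars of the MCM ring are nearly alike in all libraries, while Rfc1 widens from 26.5% to 41.1% of the RFC counts and Gins1 narrows from 28.9% to 19.4% of the GINS counts.

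All 8 polymerase and primase genes fell, and 4 were DEGs. Prim1, the catalytic primase subunit that starts each new strand, had 38.3, 34.6 and 36.3 normalized CPM in C6-AQP1 and 90.3, 89.5 and 85.6 in controls, with a log2 fold change of -1.29 (SE 0.04, adjusted p = 4.1e-18). Pola2, the accessory subunit of polymerase alpha, had 21.8, 20.8 and 22.2 against 46.7, 47.8 and 47.5, and Pole2, that of the leading-strand polymerase epsilon, 12.2, 9.79 and 10.99 against 24.9, 23.0 and 22.3. Pold2, an accessory subunit of the lagging-strand polymerase delta, had 24.5, 24.8 and 25.01 against 49.0, 50.4 and 49.8 normalized CPM. These 3 accessory subunits had log2 fold changes of -1.13, -1.10 and -1.01, without overlap between groups. The catalytic subunits Pola1 and Pold1 and the large primase subunit Prim2 fell by 0.98, 0.94 and 0.94 on the log2 scale. Pole, the catalytic subunit of polymerase epsilon, changed least, with 58.4, 61.3 and 58.7 normalized CPM in C6-AQP1 and 91.1, 88.9 and 90.3 in controls. Its libraries were still separate between groups, at a log2 fold change of -0.60 (SE 0.03, adjusted p = 9.7e-14).

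The sliding clamp and its partners fell, with the large loader subunit as the exception. Pcna, the clamp that tethers polymerases to DNA, had 172.4, 163.2 and 161.5 normalized CPM in C6-AQP1 and 388.5, 377.7 and 376.4 in controls, a log2 fold change of -1.204 (SE 0.02, adjusted p = 8.5e-21). Ns5atp9, which encodes the PCNA-associated factor, had 2.97, 1.87 and 1.58 normalized CPM in C6-AQP1 and 9.83, 8.24 and 7.26 in controls. It had the lowest log2 fold change of the set, -2.05 (SE 0.20, adjusted p = 2.4e-06), and also the widest spread among libraries, so its distance from the other genes was the least precisely measured. Over the alternatives its log2 fold change ran from -2.27 to -1.86. In the RFC complex, which opens the clamp and loads it onto DNA, Rfc4 had 30.5, 29.1 and 31.2 normalized CPM against 73.05, 74.2 and 73.8 in controls (log2 fold change -1.29). Rfc5, Rfc3 and Rfc2 had log2 fold changes of -0.96, -0.92 and -0.84. Rfc1, the large subunit of the loader, had 93.8, 96.8 and 95.6 normalized CPM in C6-AQP1 and 101, 96.9 and 98.3 in controls. The groups nearly touched, and the log2 fold change of -0.05 (SE 0.03, adjusted p = 0.139) did not pass. Over the alternatives it ran from -0.06 to 0.01 and never passed (adjusted p = 0.119 to 0.793). Its share of the RFC counts went from 26.5% ± 0.399 in controls to 41.1% ± 0.464 in C6-AQP1 (SD, n = 3).

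Single-strand binding proteins and enzymes of Okazaki fragment maturation all fell, with a median log2 fold change of -0.70. Rpa2, the middle subunit of the RPA trimer that coats unwound DNA, had 29.55, 28.9 and 30.7 normalized CPM in C6-AQP1 and 64.5, 63.1 and 62.9 in controls, with a log2 fold change of -1.09 (SE 0.04, adjusted p = 7.1e-17). Rpa3, the small subunit, and Rpa1, the large DNA-binding subunit, had log2 fold changes of -0.91 and -0.70. Fen1, the flap endonuclease, and Lig1, the ligase that seals the fragments, fell by 0.70 and 0.54 on the log2 scale. Rnaseh2a, the catalytic subunit of an enzyme that removes RNA from DNA, had 57.2, 60.8 and 60.6 normalized CPM in C6-AQP1 and 65.9, 64.5 and 64.5 in controls. This was a small separation with a log2 fold change of -0.12 (SE 0.03, adjusted p = 0.00267), and the call was lost when libraries were scaled by totals alone (adjusted p = 0.0737; 0.00142 to 0.0737 over all alternatives).

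Fork protection genes fell without exception. Tipin had 8.09, 6.95 and 7.52 normalized CPM in C6-AQP1 and 18.35, 17.8 and 14.8 in controls, with a log2 fold change of -1.18 (SE 0.09, adjusted p = 1.3e-10). Timeless, its binding partner, and Clspn, claspin, which relays stalled forks to the kinase CHEK1, had log2 fold changes of -0.79 and -0.85. Wdhd1, which links the helicase to polymerase alpha, had 75.1, 71.4 and 73.3 normalized CPM against 82.1, 84.7 and 83.7 in controls. The groups were apart but close, with a log2 fold change of -0.19 (SE 0.03, adjusted p = 5.0e-06).

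Genes that rebuild chromatin behind the fork fell, with a median log2 fold change of -1.07 beside -1.08 for the MCM ring. Nasp, a histone chaperone, had 61.4, 55.2 and 58.2 normalized CPM in C6-AQP1 and 132.5, 130.2 and 128.9 in controls, with a log2 fold change of -1.17 (SE 0.03, adjusted p = 2.0e-18). Uhrf1, which reads hemimethylated DNA and recruits DNMT1, had 78.7, 77.1 and 79.1 against 164.1, 163.5 and 165.9, and Chaf1b, the middle subunit of the histone chaperone CAF-1, 11.3, 11.9 and 12.4 against 24.3, 25.6 and 25.4. Both had a log2 fold change of -1.07, with wide gaps between groups. Chaf1a, the large CAF-1 subunit, had 49.9, 58.25 and 53.8 normalized CPM in C6-AQP1 and 94.4, 97.1 and 97.9 in controls, a log2 fold change of -0.83 (SE 0.04, adjusted p = 1.3e-11).

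**Figure D4:**
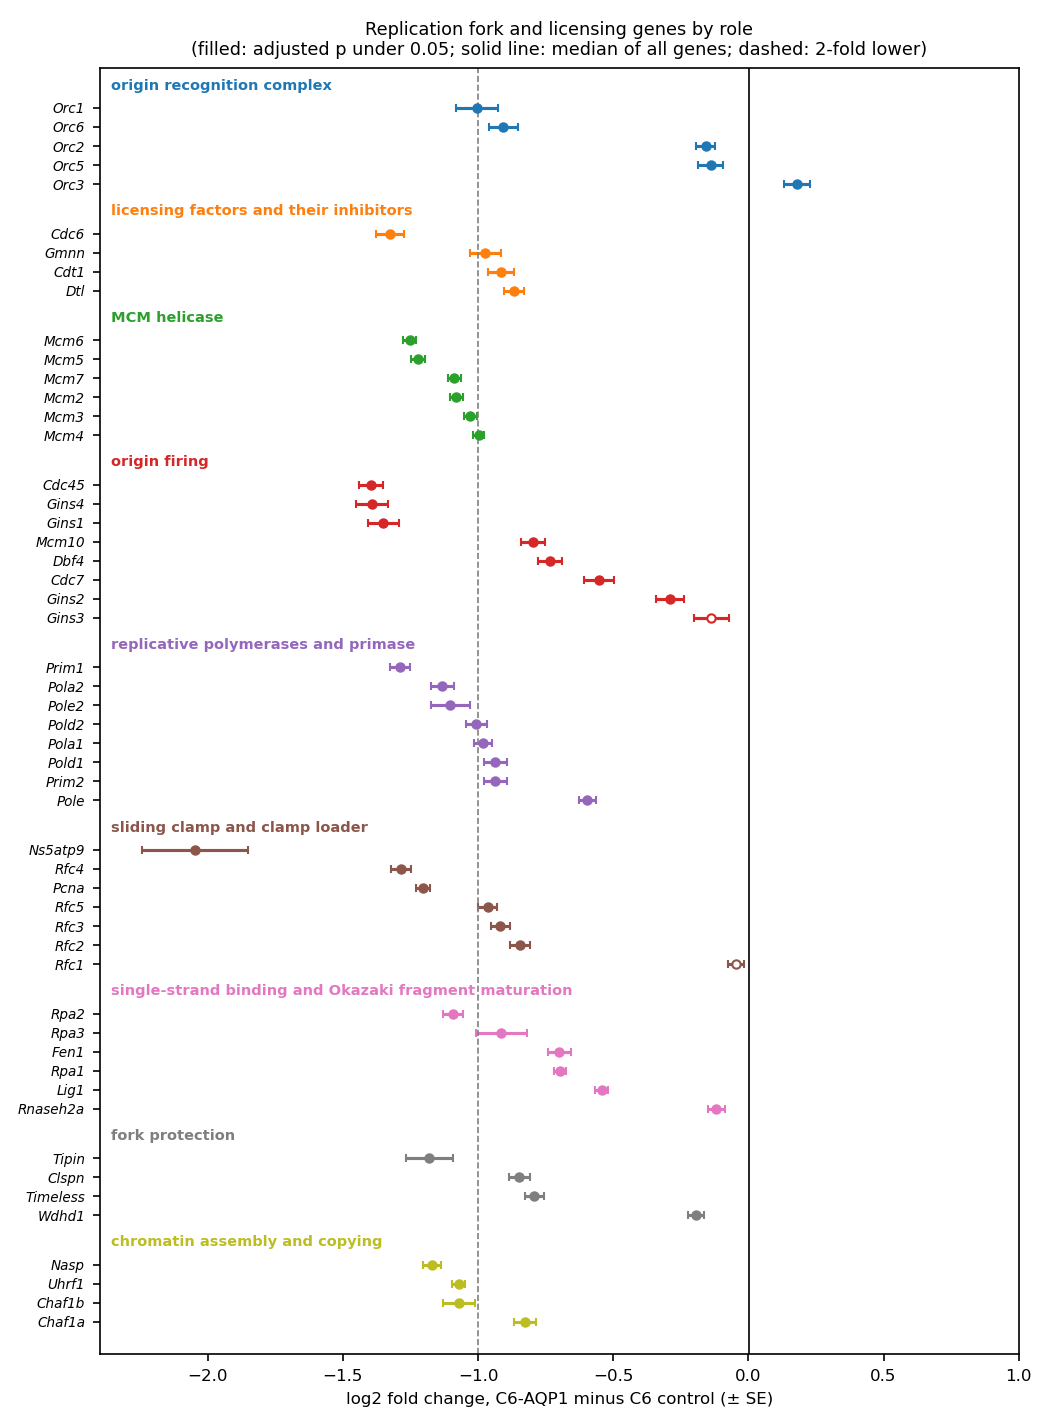
Log2 fold change between C6-AQP1 and C6 control (horizontal axis, with SE) of the 52 genes, ordered by role. Filled points passed an adjusted p of 0.05, the solid line is the median of all genes (0.00) and the dashed line marks 2-fold lower; 49 filled points lie left of the solid line and 1, Orc3, lies right of it.

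The count ratio of genes whose products work as partners was formed within each library for 11 pairs picked for their biology. The 2 groups did not overlap in 8 of the 11 pairs, while over all pairs of genes with counts in every library 81.0% did not overlap, so separation was no more common among the partners than among genes at large and the ratios are given as values only. In the 8 pairs the two-sided exact permutation test gave p = 0.10, the smallest value that 3 against 3 libraries allow, and an adjusted p of 0.138 over the 11 pairs. The ratio of Rpa1 to Rpa2 was 4.995, 5.06 and 4.84 in C6-AQP1 and 3.695, 3.79 and 3.795 in controls, and that of Pole to Pole2 was 4.79, 6.26 and 5.34 against 3.66, 3.87 and 4.04. For Prim2 over Prim1 it was 0.746, 0.752 and 0.724 against 0.593, 0.562 and 0.588. In each of these the subunit named second dropped more. Timeless over Tipin, Chaf1a over Chaf1b and Pola1 over Pola2 shifted the same way, by 0.38, 0.24 and 0.15 in log2 ratio. Pcna over Ns5atp9 shifted by 0.82, with SDs of 0.42 in C6-AQP1 and 0.20 in controls. Uhrf1 over Dnmt1, the maintenance methyltransferase that it recruits, went the other way, from 0.453, 0.458 and 0.455 in controls to 0.316, 0.296 and 0.310 in C6-AQP1, since Dnmt1 fell by only 0.50 on the log2 scale. Besides Cdt1 over Gmnn, the ranges overlapped for Cdc7 over Dbf4 and Pold1 over Pold2 (two-sided exact permutation p = 0.20 and 0.50).

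Further replication genes, listed by function, were also mostly lower. Of 39 measured, 32 fell (82.1%, beside 40.7% of all genes), 2 rose and 5 did not pass. The median log2 fold change was -0.43, and 5 were lower DEGs (12.8%, beside 4.35% of all genes). The largest changes that passed were those of Asf1b, a histone chaperone, Top2a, the topoisomerase that untangles sister DNA, Mms22l, which protects stalled forks, and Rnaseh2b, a partner of Rnaseh2a, at -1.33, -1.15, -1.10 and -1.05 on the log2 scale. Against the trend, Ctc1, of the telomeric CST complex, rose with a log2 fold change of 0.32, besides Orc4. In the list of nucleotide supply 16 of 19 genes fell (84.2%, beside 40.7% of all genes) and 3 rose, with a median of -0.72. Tk1, thymidine kinase, Dctpp1, a nucleotide pyrophosphatase, Nme1, a nucleoside diphosphate kinase, and Dut, dUTPase, had log2 fold changes of -1.38, -1.35, -1.28 and -1.27. Rrm2b, the ribonucleotide reductase subunit used outside S phase, and Samhd1, which degrades dNTPs, rose by 0.44 and 0.40.

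Regulators of S phase moved both ways. Of 21 measured cyclins, kinases, E2F and pocket proteins, 14 fell, 3 rose and 4 did not pass, with a median of -0.26. Ccna2, cyclin A2, E2f8 and E2f5, which are repressors of the E2F family, and Ccne1, cyclin E1, had log2 fold changes of -1.48, -1.18, -1.05 and -0.97. The E2F partner Tfdp2 rose by 0.81 on the log2 scale, with means of 31.0 normalized CPM in C6-AQP1 and 17.8 in controls. Tfdp1, also an E2F partner, fell with a log2 fold change of -0.72, at means of 116 and 192. Of the pocket protein genes, Rb1, the retinoblastoma gene, and Rbl2 rose by 0.58 and 0.50, while Rbl1 fell, at -0.615. The activators E2f2, at 0.03 (adjusted p = 0.726), and E2f3, at 0.07 (adjusted p = 0.395), did not pass. E2f1 was also listed but had no counts under that name, so its change is not known here. In the replication checkpoint 6 of 9 genes fell and 2 rose, with a median of -0.21. The share that fell was 66.7% both here and among the S-phase regulators. Across all genes 40.7% fell and 40.8% rose. Rad1, of the checkpoint clamp, the kinase Chek1 and Rad9a, also of the clamp, had -0.72, -0.29 and -0.29, and the clamp gene Hus1 and the kinase Wee1 rose by 0.34 and 0.16.

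Mitosis and kinetochore genes were lower throughout. All 31 measured fell, beside 40.7% of all genes, and 15 of them were lower DEGs (48.4%, beside 4.35% of all genes). The median was -0.997 against -0.95 for the 52 replication genes. Ccnb1, cyclin B1, Spc24, a kinetochore subunit, Cdk1, the mitotic kinase, and Mad2l1, of the spindle checkpoint, had log2 fold changes of -1.47, -1.41, -1.35 and -1.34. Their promoter windows differed from those of the replication genes, with the CHR element in 19 of 27 genes (70.4%) and the E2F-like element in 4 (14.8%). The lists were described by counts and medians, and differences between them were not tested.

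**Figure D5:**
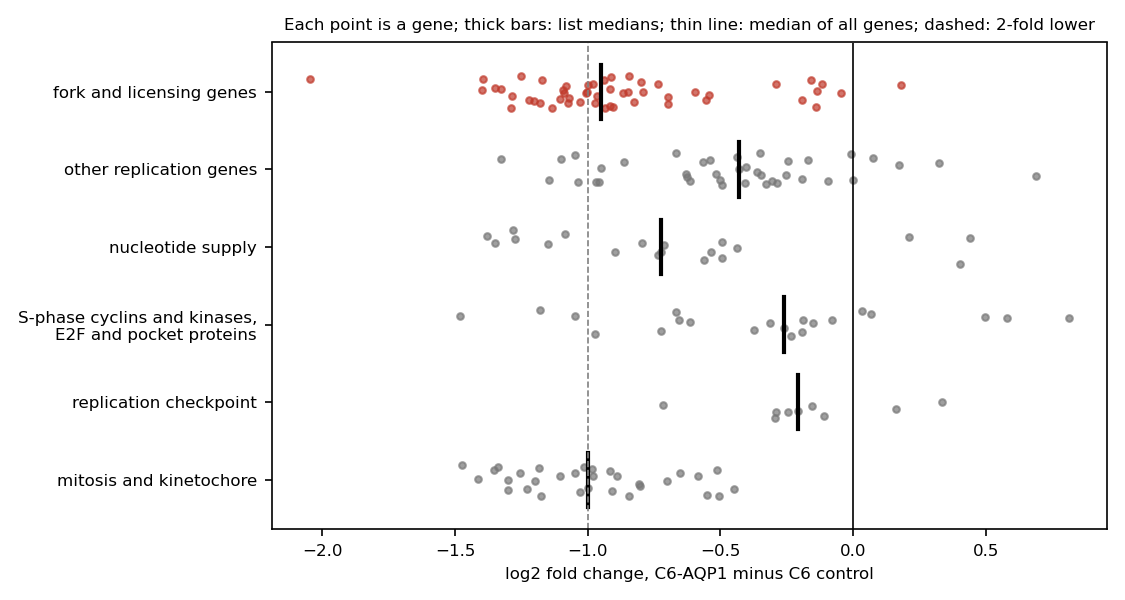
Log2 fold change between C6-AQP1 and C6 control of each gene (points) in the set of 52 and in 5 related lists, with the median of each list as a thick bar, the median of all genes as a thin line and 2-fold lower as a dashed line. The set of 52 and the mitosis list have medians of -0.95 and -0.997, while the other lists lie between -0.72 and -0.21.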

How the data were processed

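RNA was sequenced from 3 C6-AQP1 and 3 C6 control libraries, in cDNA that was amplified before library construction. FastQC (0.11.2), Trimmomatic (0.36), STAR (2.5.1b) and RSEM (1.2.29) are credited, in the submitters' processing notes, with read checks, trimming, alignment to rn6 and quantification. An annotation release is, for these files, not given in the sources used here. Labels and the methods differ on whether reads were single or paired. The authors deposited expected counts per gene and library, estimated and not normalized, for the genes that the methods keep at a mean TPM above 1. RSEM splits reads that fit several genes; 47 of the 52 genes had whole counts in every library, and Clspn, Dbf4, Fen1, Lig1 and Mcm4 did not.

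Counts were rounded, scaled by TMM and compared across all 12121 genes by the quasi-likelihood test of edgeR (4.0.16, R 4.3.3) with robust estimation and Benjamini-Hochberg adjustment. A gene counted as a DEG where it also changed more than 2-fold at an adjusted p under 0.05. The SE was derived from the log2 fold change and the F statistic, and the common BCV was 2.97%. Alternatives used DESeq2 (1.42.0), limma-voom (limma 3.58.1), other scalings, a low-count filter, left-out libraries and the replicate number as a block. Libraries of a group differed by more than counting noise (chi-square per degree of freedom 2.15 to 4.29), so none was taken for a library deposited more than once; this does not show that they were separate cultures. Exact permutation tests used scipy (1.17.1).

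The 52 genes and all lists were chosen with earlier results of these data known. Every member is named, with full values for DEGs, for the largest and smallest change of each role and for genes against the main direction. Of each other list, the 4 largest changes that passed and up to 2 against its direction are named. E2f2, E2f3, Dnmt1, Tfdp1, Rbl1, Rbl2 and the single glial, neuronal and fibroblast markers are named as well, chosen after their values were seen. Transcript lengths were not used. Protein, RT-qPCR and cell assays were not analysed here.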

Additional observations from a re-analysis of the deposited data

How the results depend on the processing

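Across 13 alternatives, 49 of the 52 replication genes kept their call under each, and the exceptions were Orc5, Gins3 and Rnaseh2a. No called gene of the 52 changed sign, and Rfc1, never called, ran from -0.06 to 0.01. The number of the 52 that fell was 47 to 50, and 19 genes were lower DEGs under every setting. When libraries were scaled by totals alone, the median of all genes moved to 0.05 and that of the 52 genes to -0.90 (log2), with 19 lower DEGs in place of 22. Leaving out each library in turn gave medians of -0.99 to -0.92, 48 to 50 falls and 20 to 24 lower DEGs; the value of -0.99 came without C6-AQP1 replicate 1, and the cause was not tested. Without the shallower library of each group, 50 genes fell, 23 of them as DEGs. DESeq2 gave 49 falls and 22 lower DEGs. The replicate numbers are not known to pair the libraries, since the deviations of same-numbered libraries correlated at 0.122, -0.0805 and 0.00602 across genes. With the replicate block, 50 genes fell in place of 49, Gins3 being added (adjusted p = 0.0336), and the median was -0.95, with no other call changed among the 52; C6-AQP1 replicate 2 correlated best with control replicate 3. Ns5atp9 had the fewest counts, from 58 in its lowest library, and its fold change varied by 1.32 times over the settings; what set its spread was not tested.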
